A study of Homo sapiens with 12 samples.

Results

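The 10 genes examined here encode sensors of foreign or misplaced nucleic acid and the proteins that pass their signal on. They are *RIGI*, *IFIH1*, *DHX58*, *DDX60*, *DDX60L*, *MAVS*, *CGAS*, *STING1*, *TLR3* and *TBK1*. They were taken by name, with older symbols (DDX58, TMEM173 and MB21D1) resolved to the Ensembl gene identifiers of the count files, and all 10 were found among the 54127 genes counted in each file. The cells were C4-2, a human prostate cancer (PrCa) cell line, grown in RPMI medium with serum and without any genetic change made for the experiment. A group of 6 RNAseq libraries came from cells given the vehicle DMSO, and another 6 from cells given PBKi, the PBK kinase inhibitor HI-TOPK-032, at 1 µM for 6 h. The comparison of these groups asked which transcripts the inhibitor altered. It used 1 cell line, 1 compound, 1 concentration and 1 time, and the labels do not say whether libraries of a group came from separate cultures, so p-values measure the spread between these libraries, which may be technical.

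Cells detect viral or mislocalised nucleic acid through receptors in the cytosol and in endosomes. RIG-I (from *RIGI*) and MDA5 (from *IFIH1*) bind double-stranded RNA in the cytosol and signal through MAVS on mitochondria, whereas cGAS binds DNA and makes a cyclic dinucleotide that activates STING on the endoplasmic reticulum. TLR3 reads double-stranded RNA in endosomes. All of these routes lead to the kinase TBK1, which phosphorylates IRF3 and so switches on type I and type III interferon genes, and several of the sensors are themselves interferon-stimulated genes.

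Expression is given as normalised CPM, the reads of a gene relative to the size of its library (counts scaled with TMM factors). Reads on genes ranged from 9663203 to 28029908 per library. Of the reads placed on a gene, outside genes or on more than 1 gene, between 5.74% and 9.30% lay outside genes. The highest shares were in PBKi replicates 3 and 6. Alignments that were not unique made up 26.7% to 29.3% of all those tallied and were not assigned to genes. Of the 8 markers of prostate luminal epithelium examined, all were detected above 1 CPM in both groups. Their summed level was 4700 to 5561 CPM in DMSO and 2522 to 3375 CPM in PBKi. Of the 8, 5 fell, 1 rose and 2 did not pass. *KLK3*, which encodes prostate-specific antigen, had a log2 fold change of -1.39 (edgeR, Benjamini-Hochberg adjusted p = 7.68e-08), and *FOLH1*, which encodes prostate-specific membrane antigen and was the 1 that rose, had 0.33 (adjusted p = 0.000127 from the same test). *PBK*, the gene of the targeted kinase, was lower in PBKi, at 165 ± 15.1 CPM against 219 ± 37.2 CPM in DMSO (SD, n = 6 each). As PBKi targets the protein, the transcript does not check the labels.

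Transcripts of the RNA sensors among the 10 genes rose after PBKi, and *STING1* and *TBK1* did not pass the test, and *CGAS* had too few reads to enter it. Of the 10 genes, 9 had at least 10 reads in at least 6 libraries and entered edgeR's quasi-likelihood test, and 7 of them had a higher level in PBKi with a Benjamini-Hochberg adjusted p under 0.05. All 9 fold changes were positive, so the count of genes called lower was 0 in edgeR, at an unadjusted p under 0.05 too, and it was also 0 by DESeq2 and limma-voom. In the same test 20.1% of the 14505 genes tested were higher and 21.5% lower, or 41.7% in either direction. The 7 genes were *DDX60*, *RIGI*, *TLR3*, *DDX60L*, *DHX58*, *IFIH1* and *MAVS*. In 6 of them, all but *MAVS*, every PBKi library lay above every DMSO library, as did 10.5% of the genes tested. In none of the 10 did every PBKi library lie below every DMSO library, as 9.68% of the genes tested did. At least a doubling was reached by 4, *DDX60*, *RIGI*, *TLR3* and *DDX60L*, beside 3.26% of the genes tested. *TLR3* and *DDX60L* reached 10 reads in only 2 and 4 of the 6 DMSO libraries, so they passed the count filter through the PBKi libraries. Of the 7 genes that passed on the DMSO libraries alone, 5 were higher. The median log2 fold change of the 9 was 0.91, beside -0.01 over all genes tested. These are bulk libraries, in which more cells with a transcript and more transcript per cell cannot be told apart.

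**Figure D1:**
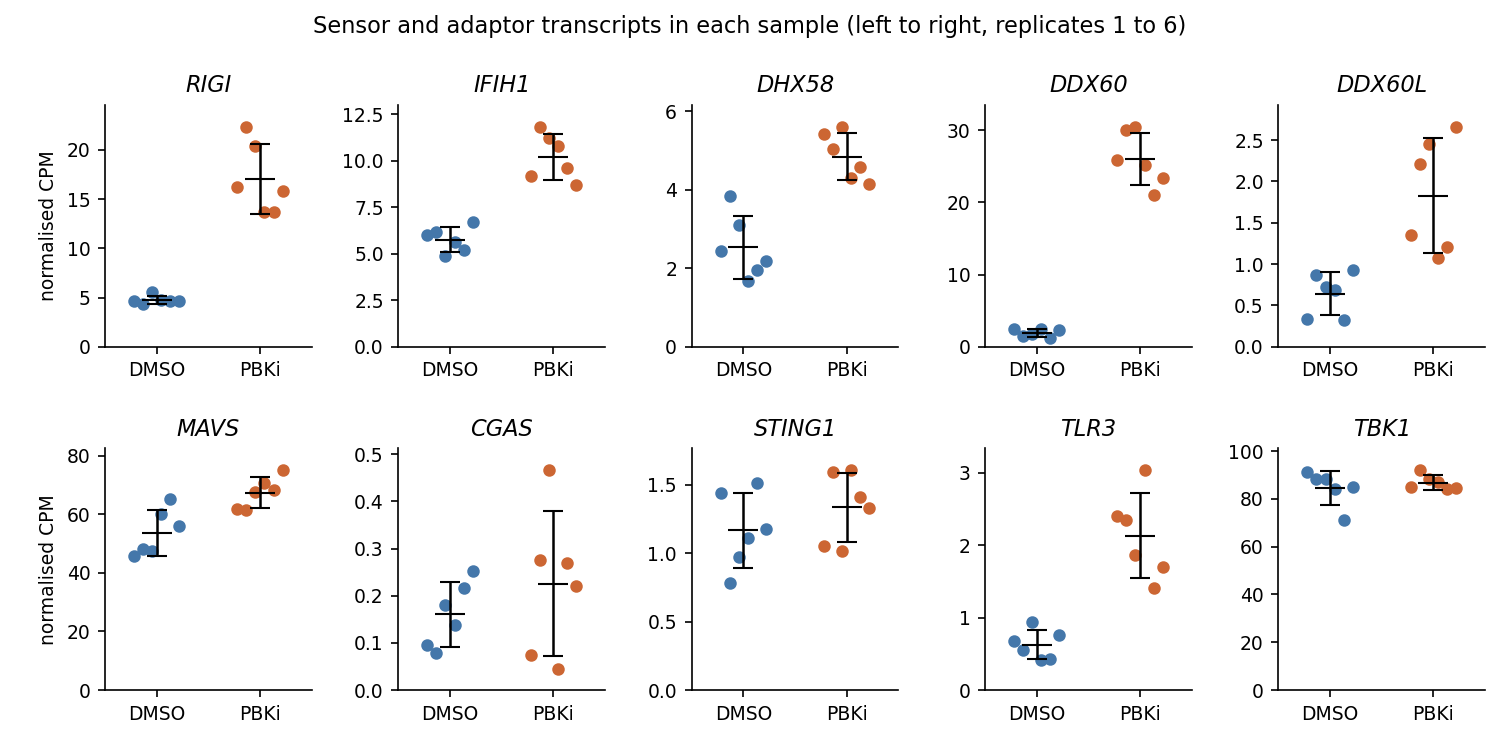
Normalised CPM (vertical axes, each from 0) of the 10 sensor and adaptor genes in the 6 DMSO libraries (blue) and the 6 PBKi libraries (orange), with the mean and SD as black bars. For *RIGI*, *IFIH1*, *DHX58*, *DDX60*, *DDX60L* and *TLR3* the points of the 2 groups do not overlap, and for *MAVS*, *CGAS*, *STING1* and *TBK1* they do.

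The promoters of *DDX60*, *DDX60L*, *IFIH1* and *RIGI* are shown because these transcripts rose and because the windows differ in how often they hold the core of the interferon-stimulated response element, a sequence bound by IRF and STAT complexes. The core searched was GAAANNGAA on both strands, in windows from 250 bases before to 50 bases after each RefSeq transcription start. A shorter form with 1 base fewer between the repeats, GAAANGAA, was added after the promoters were read. The 250 bases before the start are printed 5′ to 3′ on the strand of the gene (GRCh38.p14, all on the minus strand), with matches to either form in capitals. The intervals are chr4:168318753-168319002 for *DDX60*, chr4:168480493-168480742 for *DDX60L*, chr2:162318685-162318934 for *IFIH1* and chr9:32526197-32526446 for *RIGI*.
DDX60: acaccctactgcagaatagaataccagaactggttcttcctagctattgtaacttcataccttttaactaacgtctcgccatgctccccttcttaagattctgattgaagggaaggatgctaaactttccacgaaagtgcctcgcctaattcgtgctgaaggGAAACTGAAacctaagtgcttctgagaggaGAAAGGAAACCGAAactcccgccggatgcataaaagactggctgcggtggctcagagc
DDX60L: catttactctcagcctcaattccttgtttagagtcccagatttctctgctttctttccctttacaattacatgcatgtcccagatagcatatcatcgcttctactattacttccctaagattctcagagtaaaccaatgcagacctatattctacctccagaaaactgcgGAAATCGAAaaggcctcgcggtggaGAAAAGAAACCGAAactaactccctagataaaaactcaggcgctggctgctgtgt
IFIH1: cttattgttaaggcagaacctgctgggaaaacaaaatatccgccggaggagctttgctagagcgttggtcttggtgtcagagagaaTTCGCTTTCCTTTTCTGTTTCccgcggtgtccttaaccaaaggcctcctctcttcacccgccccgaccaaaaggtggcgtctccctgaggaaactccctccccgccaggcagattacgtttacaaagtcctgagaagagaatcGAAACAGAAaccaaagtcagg
RIGI: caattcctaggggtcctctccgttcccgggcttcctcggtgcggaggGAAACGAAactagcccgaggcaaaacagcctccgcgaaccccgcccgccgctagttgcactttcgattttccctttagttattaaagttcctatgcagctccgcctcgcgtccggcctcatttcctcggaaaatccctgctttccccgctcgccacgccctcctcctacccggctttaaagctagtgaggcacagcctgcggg

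The *DDX60* window held the core at 88 and 53 bases before the start and the *DDX60L* window at 80 and 50 bases. In both genes the nearer match read GAAACCGAA and overlapped a match to the shorter form. *IFIH1* had 4 matches, of which 3 overlapped each other on the opposite strand (164, 158 and 152 bases before the start), and the other lay 21 bases before it. The *RIGI* window held no match to the core and 1 match to the shorter form, 203 bases before the start. *TLR3* had 1 match on the opposite strand, from 3 bases before the start into the transcribed part, and the windows of *MAVS* and *TBK1* had none. RefSeq promoters were matched for 7 of the 10 genes. The core was present in 8.29% of all 27305 promoter windows, in 6.01% of those of genes tested, in 10.6% of those of genes that were called and at least doubled, and in 69.6% (16 of 23) of those of the interferon-stimulated genes listed below. The shorter form was present in 7.67% of all windows. A match describes the sequence and says nothing about binding in these cells.

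*DDX60* had the largest rise of the 10 genes. It encodes a helicase-like protein reported to assist RIG-I, and occupies 169137442 to 169240034 of chromosome 4 (minus strand; gene positions here and below are those of GRCh37). The DMSO libraries ranged from 1.19 to 2.49 CPM (median 1.98), and the PBKi libraries from 21.1 to 30.4 CPM (median 25.5). The lowest PBKi library was thus far above the highest DMSO library. Mean levels were 1.94 ± 0.556 CPM in DMSO against 26.0 ± 3.66 CPM in PBKi (SD, n = 6 each). The log2 fold change was 3.71 (SE 0.141, edgeR, Benjamini-Hochberg adjusted p = 2.08e-12), a 13.1-fold increase and the 69th highest of the genes tested. Its relative *DDX60L* lies 37851 bases away on the same strand (169277886 to 169458937 on chromosome 4) and had few reads, 3 to 20 per DMSO library and 18 to 58 per PBKi library. *DDX60L* ranged from 0.325 to 0.923 CPM in DMSO (median 0.707) and from 1.07 to 2.66 CPM in PBKi (median 1.78). The groups were apart by a narrow margin, and the log2 fold change was 1.50 (SE 0.295, edgeR, Benjamini-Hochberg adjusted p = 0.0006). Of the 40-base windows in their transcripts, the read length used, 0.353% of those of *DDX60* and 0.503% of those of *DDX60L* were found in both genes, so few reads could be shared between them.

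*RIGI*, *IFIH1* and *DHX58* encode the RIG-I-like receptors. *RIGI* (chromosome 9, 32455300 to 32526206, minus strand) rose from 4.74 ± 0.421 to 17.0 ± 3.59 CPM (SD, n = 6 each). Its DMSO libraries lay close together, from 4.31 to 5.55 CPM with a median of 4.63 CPM, and its PBKi libraries spread from 13.6 to 22.3 CPM with a median of 16.0 CPM. The log2 fold change was 1.83 (SE 0.13, edgeR, Benjamini-Hochberg adjusted p = 7.79e-09), a 3.54-fold increase. In the annotation used for lengths, 4471 exon bases of *RIGI* (43.2%) are shared with another protein-coding gene model on the same strand. That model was not among the genes counted, so its reads cannot be told from those of *RIGI*. *IFIH1* (chromosome 2, 163123584 to 163175194, minus strand), which encodes the sensor of long double-stranded RNA MDA5, ranged from 4.87 to 6.71 CPM in DMSO (median 5.80) and from 8.72 to 11.8 CPM in PBKi (median 10.2). Its log2 fold change was 0.84 (SE 0.102, edgeR, Benjamini-Hochberg adjusted p = 4.44e-06), or 1.79-fold. *DHX58* (chromosome 17, 40253422 to 40264732, minus strand) encodes LGP2, which lacks the signalling domains of the other receptors and modulates them. It ranged from 1.66 to 3.84 CPM in DMSO (median 2.31) and from 4.14 to 5.59 CPM in PBKi (median 4.81), with a log2 fold change of 0.91 (SE 0.164, edgeR, Benjamini-Hochberg adjusted p = 0.000284). The highest DMSO library of *DHX58* was close to the lowest PBKi library, whereas those of *RIGI* were well apart.

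The sensors did not rise in proportion to each other. The log2 ratio of *RIGI* to *IFIH1* reads was -0.28 ± 0.273 in DMSO and 0.72 ± 0.236 in PBKi (SD, n = 6 each), a difference of 1.00. *RIGI* also gained on *DHX58*, with log2 ratios of 0.96 ± 0.457 and 1.80 ± 0.224, a difference of 0.84. *DDX60* gained on *RIGI* by 1.96 and on *DDX60L* by 2.26. These 4 pairs were chosen after their values were seen, so the ratios are a description without a test. In each of the 4 the ratios of the PBKi libraries were above all those of the DMSO libraries.

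**Figure D2:**
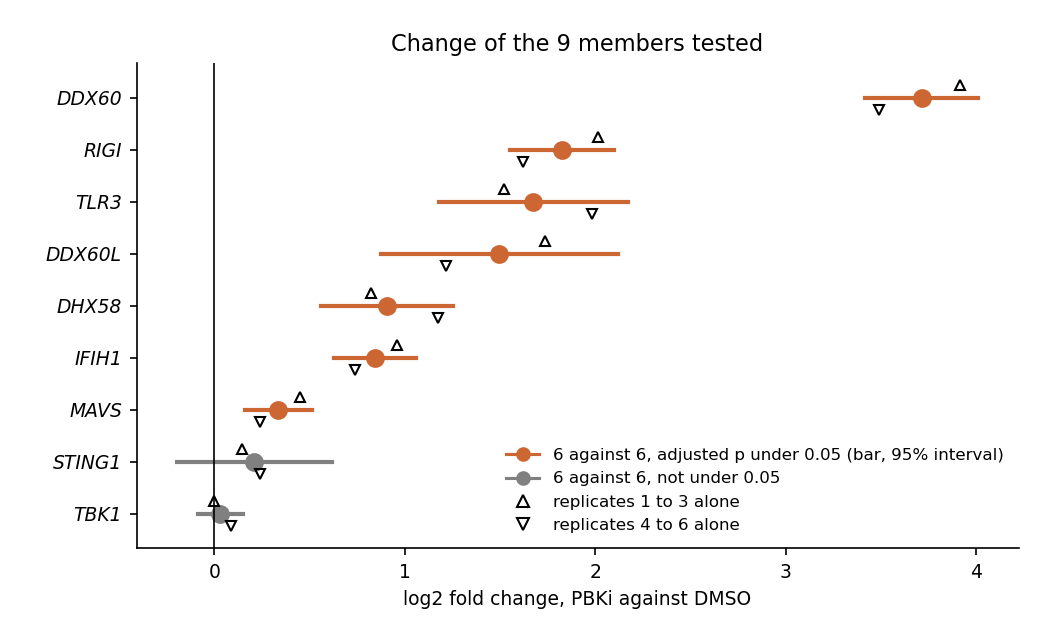
Log2 fold change of PBKi against DMSO (horizontal axis) for the 9 genes tested, with 95% intervals as bars, coloured where the adjusted p was under 0.05. Open triangles give the fits within replicates 1 to 3 and within replicates 4 to 6, which put *DDX60* at 3.92 and 3.49 and change the order of *TLR3* and *RIGI*.

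*TLR3*, the endosomal receptor for double-stranded RNA (chromosome 4, 186990065 to 187009227, plus strand), had few reads, 4 to 26 per DMSO library and 21 to 68 per PBKi library. It ranged from 0.415 to 0.938 CPM in DMSO (median 0.610) and from 1.41 to 3.03 CPM in PBKi (median 2.11). All PBKi libraries were above all DMSO libraries, and the log2 fold change was 1.67 (SE 0.235, edgeR, Benjamini-Hochberg adjusted p = 2.26e-05), or 3.19-fold. Fitted within replicates 1 to 3 and within replicates 4 to 6, it was 1.52 and 1.98.

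The adaptors and the kinase moved little or not beyond the spread. *MAVS* (chromosome 20, 3827446 to 3856770, plus strand), the adaptor of the RIG-I-like receptors, ranged from 45.8 to 65.1 CPM in DMSO (median 52.1) and from 61.4 to 75.1 CPM in PBKi (median 68.0). The groups overlapped, and the log2 fold change was 0.34 (SE 0.083, edgeR, Benjamini-Hochberg adjusted p = 0.0036), or 1.26-fold. *STING1* (chromosome 5, 138855118 to 138862520, minus strand) had 10 to 30 reads per DMSO library and 14 to 36 per PBKi library. It was at 1.17 ± 0.277 CPM in DMSO and 1.33 ± 0.255 CPM in PBKi (SD, n = 6 each), with a log2 fold change of 0.21 (95% interval -0.20 to 0.62, edgeR, Benjamini-Hochberg adjusted p = 0.405). With so few reads the values are compatible with no change and with any change inside that interval. *TBK1* (chromosome 12, 64845870 to 64895894, plus strand) ranged from 71.3 to 91.4 CPM in DMSO (median 86.5) and from 84.0 to 92.0 CPM in PBKi (median 86.1). Its log2 fold change of 0.03 had the narrowest interval of the 9 genes, -0.09 to 0.15 (edgeR, Benjamini-Hochberg adjusted p = 0.678). The direction of *TBK1* depended on the samples used, with a value of -0.01 without DMSO replicate 5.

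*CGAS*, the DNA sensor (chromosome 6, 74123238 to 74162020, minus strand), was near the limit of detection and was not tested. Its reads in DMSO replicates 1 to 6 were 2, 1, 5, 2, 2 and 3, and in PBKi replicates 1 to 6 they were 1, 4, 11, 1, 4 and 3. These sum to 15 reads in DMSO (exact Poisson 95% interval 8.40 to 24.7) and 24 reads in PBKi (15.4 to 35.7), and the intervals, which cover counting error only, overlap. Normalised, *CGAS* was at 0.160 ± 0.0682 and 0.225 ± 0.153 CPM (SD, n = 6 each; two-sided exact permutation test, p = 0.379), so a difference was not detectable at this depth. A stretch of 180 bases of its exons lies opposite *DDX43*, and the strand setting of the counting is not given in the sources used here.

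Differences between genes in level are given per length, as RPKM, the reads of a gene divided by its summed exon length (the union of its exons) and by the reads on genes in the library. In DMSO the order was *TBK1* (5.66 RPKM), *MAVS* (4.48), *IFIH1* (1.08), *DHX58* (0.652), *RIGI* (0.450), *STING1* (0.238), *DDX60* (0.110), *TLR3* (0.0823), *DDX60L* (0.0521) and *CGAS* (0.0376). Neighbours in this order overlapped in their ranges over 6 libraries, except *MAVS* with *IFIH1*, *RIGI* with *STING1* and *STING1* with *DDX60*. In PBKi *TBK1* (5.99 RPKM) and *MAVS* (5.82) stayed first, followed by *IFIH1* (1.98), *RIGI* (1.67), *DDX60* (1.52) and *DHX58* (1.28), whose neighbouring ranges overlapped. *TLR3* (0.287), *STING1* (0.282), *DDX60L* (0.153) and *CGAS* (0.0551) followed, again with overlapping ranges. *DDX60* moved from the seventh place to the fifth. With the length of the longest transcript in place of the union of exons, the PBKi order after *MAVS* was *DDX60* (3.93 RPKM), *RIGI* (3.48), *IFIH1* (2.79) and *DHX58* (1.90), so the order among these sensors depends on the length used. The overlaps depended on it too. With the longest transcript, *TBK1* in DMSO ranged from 11.5 to 15.1 RPKM, above *MAVS* at 3.85 to 5.31 RPKM. *STING1* and *DDX60* in DMSO then overlapped, and *DDX60* and *TLR3* did not. Both lengths are from a later annotation than the one used for counting.

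**Figure D3:**
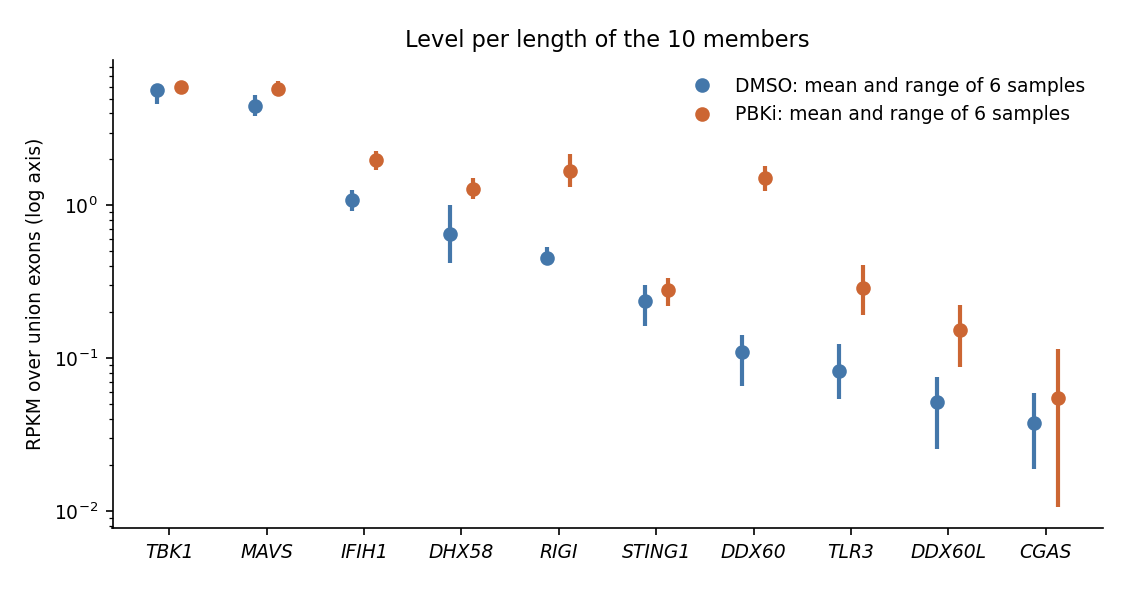
Level per length (RPKM over union exons, log axis) of the 10 genes in DMSO (blue) and PBKi (orange), with points for means and lines for the range over 6 libraries. *TBK1* and *MAVS* are the highest in both groups, and *DDX60* moves from 0.110 to 1.52 RPKM.

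The rises held within subsets of the libraries with 2 exceptions. Because the second principal component separated replicates 1 to 3 from replicates 4 to 6, each set was also fitted alone. *RIGI* was at a log2 fold change of 2.01 in replicates 1 to 3 and 1.62 in replicates 4 to 6, *IFIH1* at 0.96 and 0.74, and *DHX58* at 0.82 and 1.17, all with an adjusted p under 0.05 (edgeR, Benjamini-Hochberg). *DDX60L* (1.74 and 1.22) and *MAVS* (0.45 and 0.24) passed in replicates 1 to 3 and not in replicates 4 to 6, where the adjusted p was 0.0823 for *DDX60L* and 0.0616 for *MAVS* (edgeR, Benjamini-Hochberg). When PBKi replicates 3 and 6 were left out for their share of reads outside genes, the same 7 genes were called and *DDX60* was at 3.70. With each library left out in turn, all 7 were called in each of the 12 fits.

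The other genes of these pathways were grouped by role into lists, to be read against the 20.1% of all genes tested that were higher and the 21.5% that were lower. Of 14 cofactors of RNA sensing, 13 were tested, of which 3 rose, 5 fell and 5 did not pass, with a median log2 fold change of -0.03. The share that rose was close to that over all genes. *OASL*, which encodes a protein that enhances RIG-I signalling, had 12 reads in total in the DMSO libraries and 3623 in the PBKi libraries. It passed the count filter through the PBKi libraries alone, and its fitted log2 fold change of 8.06 (SE 0.21, edgeR, Benjamini-Hochberg adjusted p = 1.1e-14) is set against a level near 0. Its DMSO libraries ranged from 0 to 0.168 CPM (median 0.141) and its PBKi libraries from 26.9 to 39.7 CPM (median 37.8). *ZC3HAV1*, the zinc finger antiviral protein, rose by 0.70 and *TRIM25*, a ubiquitin ligase of the RIG-I pathway, by 0.43 on the log2 scale, and both were apart between groups. *RNF125*, a ligase that marks RIG-I for degradation, had a log2 fold change of -0.38 (19.0 ± 2.36 CPM in DMSO and 14.7 ± 1.87 CPM in PBKi, SD, n = 6 each), also without overlap.

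Of 10 DNA sensors and their partners, 8 were tested, of which 2 rose, 3 fell and 3 did not pass (median -0.12), where 20.1% of all genes tested rose and 21.5% fell. *IFI16*, a nuclear and cytosolic DNA sensor, had 5 reads in total in the DMSO libraries and 192 in the PBKi libraries, and a fitted log2 fold change of 4.99 (SE 0.397, edgeR, Benjamini-Hochberg adjusted p = 3.29e-08). It passed the count filter through the PBKi libraries, which lay between 1.43 and 2.46 CPM against at most 0.144 CPM in DMSO. *TRIM56*, a ligase of the STING route, had a log2 fold change of 0.78 with overlapping groups. *MRE11*, a DNA repair nuclease that also senses DNA ends, had -0.40, and *NONO*, a partner of cGAS in the nucleus, had -0.22, both without overlap. The DNA sensors *AIM2* and *ZBP1* had too few reads to be tested.

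The enzymes that remove or mask nucleic acids were all tested, and 3 of 11 rose, 4 fell and 4 did not pass (median -0.08), beside 20.1% higher and 21.5% lower over all genes tested. *SAMHD1*, which breaks down deoxynucleotides, rose from 86.6 ± 5.23 to 126 ± 4.81 CPM (SD, n = 6 each; log2 fold change 0.54, edgeR, Benjamini-Hochberg adjusted p = 2.35e-07). *ENPP1*, which degrades the cyclic dinucleotide made by cGAS, had a log2 fold change of -0.37. *PNPT1*, a mitochondrial RNA-degrading enzyme, had -0.31 and *RNASEH2B*, a subunit of RNase H2, had -0.27, both with overlapping groups. Of 12 genes for the traffic and modification of STING, 5 rose, 1 fell and 6 did not pass (median 0.01), against the same 20.1% and 21.5%. *INSIG1*, which retains sterol-regulated proteins in the endoplasmic reticulum, fell from 572 ± 37.7 to 383 ± 19.0 CPM (SD, n = 6 each; log2 fold change -0.58, edgeR, Benjamini-Hochberg adjusted p = 2.56e-07). *ZDHHC15* rose by 0.58 on the log2 scale from about 1 CPM, having passed the count filter through the PBKi libraries, *NPC1* by 0.28 and *SEC24C*, a coat protein of transport vesicles, by 0.22.

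Of 16 genes around TBK1 and IRF3, 14 were matched and tested, of which 6 rose, 1 fell and 7 did not pass (median 0.17), while 20.1% of all genes tested rose and 21.5% fell. *OPTN*, the autophagy receptor optineurin that binds TBK1, ranged from 6.27 to 8.44 CPM in DMSO (median 7.06) and from 23.7 to 41.6 CPM in PBKi (median 37.0), with no overlap. Its log2 fold change of 2.32 (SE 0.124, edgeR, Benjamini-Hochberg adjusted p = 1.65e-10) stood beside 0.39 for the kinase gene *RIPK1* and 0.33 for each of *TRAF3* and *TRAF6*, which encode ubiquitin ligases of these pathways. The groups overlapped for *TRAF3* and *TRAF6*. *IRF3* itself, named after its value was seen, did not pass (log2 fold change -0.17, edgeR, Benjamini-Hochberg adjusted p = 0.0599). Of 10 genes of the endosomal Toll-like receptor route, 7 were tested, of which 1 rose, 2 fell and 4 did not pass (median 0.11), beside the same 20.1% and 21.5% over all genes tested. *UNC93B1*, which carries these receptors to endosomes, had a log2 fold change of -0.33 and *HSP90B1*, their chaperone, of -0.31, and *IRAK4* rose by 0.21. The receptors *TLR7*, *TLR8* and *TLR9* had too few reads to be tested.

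**Figure D4:**
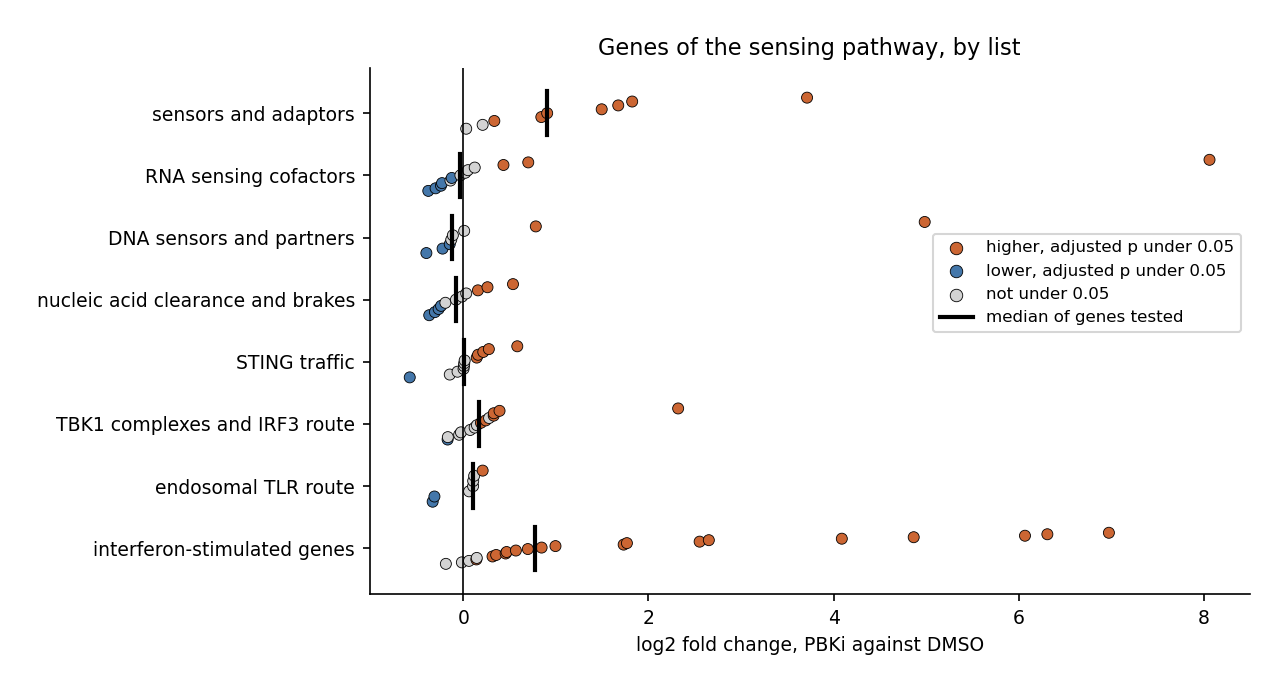
Log2 fold change of PBKi against DMSO (horizontal axis) of each gene tested, by list, with points coloured by direction where the adjusted p was under 0.05 and the median of each list as a black line. The medians of the 6 lists other than the sensors and adaptors and the interferon-stimulated genes lie between -0.12 and 0.17, with *OASL*, *IFI16* and *OPTN* far to the right of their lists.

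The interferon and chemokine genes at the end of these routes were read at most 12 times in any library. *IFNB1*, encoding interferon beta, had 0 reads in all DMSO libraries and 0, 10, 5, 5, 2 and 1 reads in PBKi replicates 1 to 6. Against a floor of 3 reads over the DMSO group, the 23 reads in PBKi were at least 7.50-fold higher (two-sided exact permutation test, p = 0.0152), a bound that takes the 23 as exact. Without PBKi replicate 2, which held 10 of them, the bound was 4.95-fold. *IFNL1*, a type III interferon gene, had 1 read in DMSO and 14 in PBKi, a ratio of 13.7 (95% counting interval 2.08 to 579, exact permutation test, p = 0.0152). The chemokine gene *CXCL10* had reads in all 6 PBKi libraries (1, 11, 9, 12, 7 and 4) and in only 1 DMSO library (2 reads), a ratio of 21.5 (95% counting interval 5.61 to 183, exact permutation test, p = 0.00216). *CXCL11* had 1 read in DMSO and 20 in PBKi, a ratio of 19.6 (95% counting interval 3.13 to 811, exact permutation test, p = 0.0152). These ratios rest on 1 or 2 DMSO reads, all in 1 library for each gene. Without that library the excess over the floor was at least 3.27-fold for *IFNL1* and 10.3-fold for *CXCL10* (DMSO replicate 3) and 5.88-fold for *CXCL11* (DMSO replicate 5), and without PBKi replicate 1 the ratio of *IFNL1* was 9.0. Among the PBKi libraries, replicate 1 had the fewest reads of *CXCL10* and none of *IFNB1*, but the most of *IFNL1* (6 reads). *IFNA1*, the only interferon alpha gene examined, had 0 reads in both groups, where the floor of 3 reads is 0.0305 CPM in DMSO and 0.0298 CPM in PBKi. Alignments that were not unique were not assigned to genes. The floor therefore covers only reads unique to *IFNA1* and does not limit its full level. *IFNL2* (0 and 1 reads), *IFNL3* (5 and 2 reads) and *CXCL9* (1 and 0 reads) had at most 5 reads in either group, and *IFNL2* and *IFNL3* are close copies whose reads may not be told apart. The p-values are not adjusted for the 8 genes examined, and the bounds cover counting error only.

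**Figure D5:**
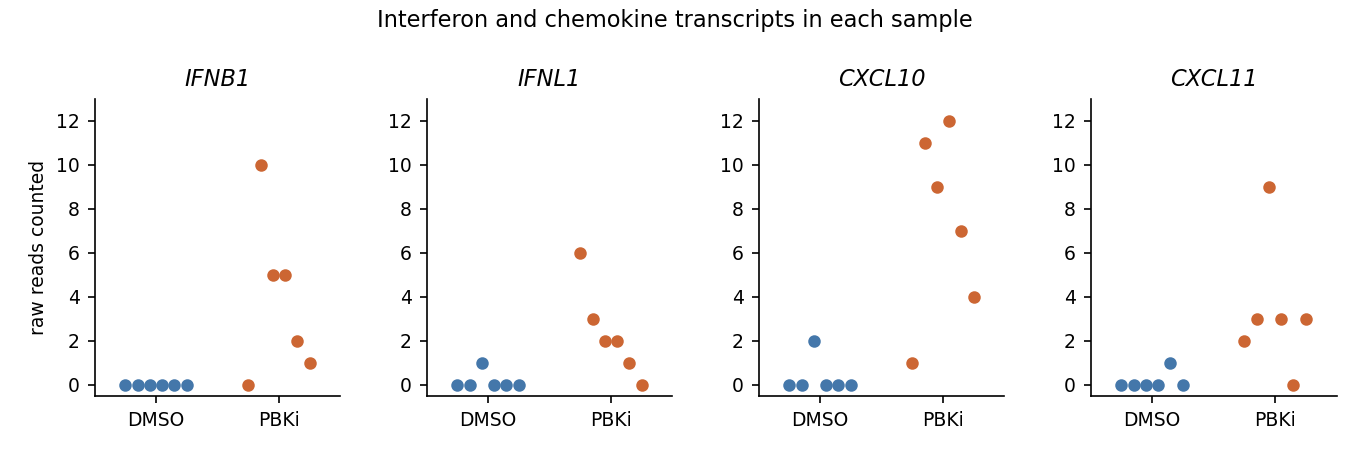
Raw reads (vertical axis) of *IFNB1*, *IFNL1*, *CXCL10* and *CXCL11* in each DMSO (blue) and PBKi (orange) library, replicates 1 to 6 from left to right. No DMSO library has more than 2 reads of any of the 4, and PBKi libraries reach 10, 6, 12 and 9 reads.

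Of 28 interferon-stimulated genes listed for comparison, 22 were tested, 18 rose and none fell by edgeR's quasi-likelihood test, beside 20.1% higher and 21.5% lower over all genes tested, with a median log2 fold change of 0.77. Of these, 7 passed the count filter through the PBKi libraries, and of the 15 that passed on the DMSO libraries alone 11 rose. The largest were *IFIT2* (6.97), *RSAD2* (6.31), *IFIT3* (6.07) and *IFI44* (4.87), all antiviral effectors and all among the 7, so that their fitted log2 fold changes are set against few DMSO reads. *IFIT2* ranged from 0.325 to 0.831 CPM in DMSO (median 0.546) and from 64.6 to 80.0 CPM in PBKi (median 72.8). Across the 18 genes that rose, PBKi replicate 2 was the highest PBKi library in 10, while across the 7 sensors and adaptors that rose the highest library was replicate 2, 3 or 6 in 2 genes each and replicate 4 in 1.

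Sensors are abundant in immune cells, so the markers of other cell types were read beside these results. Of 12 immune markers, 11 were under 1 CPM in both groups, 4 of them at 0 in every DMSO library and 2 at 0 in every PBKi library. The pan-leukocyte marker *PTPRC* was at 0.0351 CPM in DMSO and 0.0723 CPM in PBKi. The summed level of the 12 was 3.19 to 5.33 CPM in DMSO and 6.11 to 7.39 CPM in PBKi, most of it *CD68*, which rose from 3.36 to 5.52 CPM (log2 fold change 0.68, edgeR, Benjamini-Hochberg adjusted p = 0.000642). Without *CD68* the sums were 0.755 to 1.12 CPM in DMSO and 0.977 to 1.61 CPM in PBKi. The part of other cell types in the rise of the sensors was not tested. Of 7 fibroblast and endothelial markers, 5 were under 1 CPM, and the summed level was 22.4 to 28.2 CPM in DMSO and 21.0 to 26.2 CPM in PBKi.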

How the data were processed

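C4-2 cells given DMSO or PBKi were profiled by mRNA sequencing with 40-base single-end reads. The authors aligned reads to GRCh37 (Ensembl 64) with TopHat 2.0.4, counted them per gene with HTSeq-count 0.5.3p9 and tested them with DESeq 1.10.1. The deposited values are raw counts of reads per gene and lane, in 47 lane files of 12 libraries. The strand setting is not given in the sources used here. The labels name a miRNeasy kit and flow sorted cells, whereas the study's methods name an AllPrep kit and no sort.

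Counts of the lanes of 1 library agreed within sampling noise, with a chi-square of 0.991 to 1.02 per degree of freedom against 4.37 to 27.5 between libraries of a group, and were summed. DMSO replicate 5 had 3 lanes and the others 4. A gene was tested if 6 or more libraries had 10 or more counts (14505 genes), with TMM factors and the quasi-likelihood test of edgeR 4.0.16 (R 4.3.3), with no covariate and with Benjamini-Hochberg adjustment over all genes tested, at 0.05. Permutation tests on single genes enumerated all 924 splits (smallest two-sided p 0.00216). The quasi-likelihood fit, and not the permutation tests, was tried on simulated data. Lengths came from GENCODE 44 mapped to GRCh37, and promoters from RefSeq.

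Counting error is largest for *CGAS*, *TLR3*, *DDX60L*, *STING1* and the interferon genes. Genes named were the 10 members, *PBK*, up to 4 genes per list with the largest change among those called, and all interferon and chemokine genes listed. The members and lists were chosen with earlier results of these data known. *IKBKE*, *IKBKG*, *CCL5* and *PECAM1* were listed and not analysed here. Alternatives were DESeq2 1.42.0, limma-voom (limma 3.58.1), the edgeR exact test, RLE and upper quartile factors, other count filters, lanes 6 to 8, a replicate block, a covariate for the replicate sets, each set alone and leaving out each library.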

Additional observations from a re-analysis of the deposited data

Results flagged for a closer look

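Of 20 sets of 6 values (10 genes in 2 groups), 2 held a library that stood apart from the other 5 by Dixon's criterion, which chance alone meets in about 5% of sets. *RIGI* was at 5.55 CPM in DMSO replicate 3, above the next highest DMSO library at 4.71 CPM and below every PBKi library. *TBK1* was at 71.3 CPM in DMSO replicate 5, the library with 3 lanes, below the next lowest DMSO library at 84.1 CPM. Without DMSO replicate 5 the log2 fold change of *TBK1* was -0.01.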

How the results depend on the processing

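The count of sensors and adaptors called higher was 7 in each fit run, except 5 with at least 50 counts required and 5 in replicates 4 to 6 alone. No fit called one lower. With at least 50 counts required, *DDX60L*, *TLR3* and *STING1* did not enter the test, and the other 5 of the 7 were still called. Of 222 fold changes of the sensors and adaptors under alternatives, 218 kept their direction and side of the threshold. *DDX60L* (1.22) and *MAVS* (0.24) no longer passed in replicates 4 to 6 alone, and *TBK1* turned to -0.0038 in replicates 1 to 3 alone and, over the fits without 1 library, ranged from -0.0061 (without DMSO replicate 5) to 0.0555. Of 500 counts of calls compared, 449 stayed within 1.5 times, and the cause was not tested for the others, which follow. Upper quartile factors left 0 genes of the TBK1 list lower. Without a count filter, STING traffic had 2 higher, the TBK1 list 0 lower and the interferon and chemokine genes 4 higher. With at least 50 counts, DNA sensors had 1 higher and the endosomal route 2 higher. The replicate block and the covariate for replicate sets each gave 2 lower in STING traffic and 2 lower in the TBK1 list. Replicates 1 to 3 alone gave the same 2 and 2, and 2 higher in the endosomal route. Replicates 4 to 6 alone gave 1303 genes higher and 1216 lower, RNA cofactors 2 lower, clearance enzymes 1 higher and 1 lower, STING traffic 0 higher, the TBK1 list 2 higher and 0 lower, and the endosomal route 0 higher and 1 lower. Without PBKi replicates 3 and 6, chosen after seeing the data, 2004 genes were lower, and the counts were 3 lower for RNA cofactors, 1 higher for DNA sensors, 2 lower for clearance enzymes, 0 lower for the TBK1 list and 1 lower for the endosomal route.

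Leaving out 1 library at a time gave 1 to 2 DNA sensors higher, 3 to 5 higher and 1 to 2 lower in STING traffic, 0 to 2 lower in the TBK1 list, and 1 to 4 higher and 1 to 2 lower in the endosomal route. *IFI16* had at least 10 counts in exactly 6 libraries, all PBKi, so it was not tested once a PBKi library was left out. The same held for *OASL*, and 2 RNA cofactors in place of 3 were higher in each of those fits. Interferon-stimulated genes called higher numbered 13 to 15 without a PBKi library, beside 18 in the main fit. Same-numbered libraries deviated together with correlations of 0.089 to 0.299, against a mean of -0.040 over the 30 different-number pairs. Of 6 DMSO libraries, 4 matched their own number best, so the numbers may pair libraries in part. The main fit took no account of such pairing. With the replicate block 3485 genes were higher and 3803 lower, beside 2921 and 3125 in the main fit. The same 7 sensors and adaptors were called with the block. The folds of the interferon and chemokine genes without each library were added after seeing the data. Depth limits *CGAS*, *STING1*, *TLR3*, *DDX60L* and the interferon genes, with at most 68 reads in any library.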
